A study of Mus musculus with 12 samples.

Results

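The genes described here are 40 components of T cell receptor signalling, measured in regulatory T cells (Treg) from the spleen, the clot and the vein wall of mice with deep vein thrombosis. They were chosen by name, by a rule that uses no measured value, from a list drawn up with earlier results of these data known. Of the 40, 26 act in the signal itself, 12 restrain it, and 2 (Cd6 and Sh2d2a) have been given both roles. All 40 were found in every file, all 40 were among the 20849 genes that could be matched over the files, and all 40 passed the filter on low counts that left 11698 genes for testing. No member passed the main test used here between any 2 tissues, and the sizes of difference that the data allow are given for the members below.

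The T cell receptor binds peptide held by another cell and has no enzyme of its own. Its CD3 and zeta chains are phosphorylated by the kinase Lck, the kinase ZAP-70 docks on them, and adaptors such as LAT and SLP-76 then gather the enzymes that release calcium, activate Ras and free NF-kB. Phosphatases, ubiquitin ligases and diacylglycerol kinases damp the same steps. Treg depend on the receptor for their suppressive function, and strong signalling through it also induces immediate early genes such as Nr4a1.

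The cells were live CD45+ CD4+ T cells that carried both EGFP and the surface activation marker CD69. EGFP came from DEREG mice, a strain made on C57BL/6 that carries the transgene Tg(Foxp3-DTR/EGFP)23.2Spar: a bacterial artificial chromosome on which Foxp3 drives a diphtheria toxin receptor fused to EGFP. All mice had their inferior vena cava ligated, and the 3 tissues were collected on day 14, so there is no group without thrombosis and none of CD69-negative cells. There were 4 libraries per tissue, and the labels do not say whether a library is 1 mouse or several, so p-values speak only of the spread among these samples, and that spread may be technical. Cd4 and Ptprc (CD45) were used in the sort and Cd69 was too, so a difference in them between tissues is read within that gate.

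The libraries held 9719151 to 55386086 exon reads each, of which the 40 members took 1.56% to 2.06%. Spleen 3 and 4, and vein wall 3 and 4, differed far less than any other pair of libraries of one tissue: the mean chi-square per gene was 3.96 and 2.56, against 96.8 or more in the other pairs. Each such pair was summed and counted as 1 sample, leaving 3 spleen, 4 thrombus and 3 vein wall samples. The files also fall into 3 sets by layout and gene models: set 1 (spleen 1, thrombus 1), set 2 (spleen 2, thrombus 2, vein wall 1) and set 3 (the others). Set 1 held no read of the Y-linked gene Ddx3y and the other libraries 57.2 to 154.6 reads-per-million, so in set 1 against the others the set of files and whatever this gene marks cannot be told apart, while sets 2 and 3 both held its reads. The label was checked against markers: Foxp3 stood at 275.3 to 706.0 and Il2ra at 163.9 to 529.5 CPM (exon counts-per-million, scaled by edgeR's TMM factors) in every sample, while Cd4 and Ptprc are given below as members and Cd69 among the genes that signalling induces.

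Levels per kilobase of exon ordered the members over more than 3 powers of 10. Cd3g, the gamma chain of CD3, had a median of 3042 CPM per kilobase over the 10 samples, followed by Cd2, an adhesion and costimulatory receptor (2016), Cd3d (1412), the adaptor Lat (839.8) and the kinase Lck (793.8). The 8 highest medians all belonged to positive components, and the highest negative regulator was the inhibitory surface receptor Cd5, at 127.8. The lowest were the adaptor Themis (3.08), Nfatc2 (2.84) and Pag1 (0.889), the membrane anchor that brings the inhibitory kinase Csk to Lck. Neighbours in this order overlapped: Lat ranged from 457.3 to 1114 and Lck from 559 to 883.4. Exon length differed by 10% or less between the sets of files for only 4 members (Cd5, Nfatc1, Rasgrp1 and Ubash3b), so levels per length carry the gene models with them. Cd4 had a median of 36.9 CPM per kilobase, order 20 of 40, in cells sorted for its protein.

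**Figure D1:**
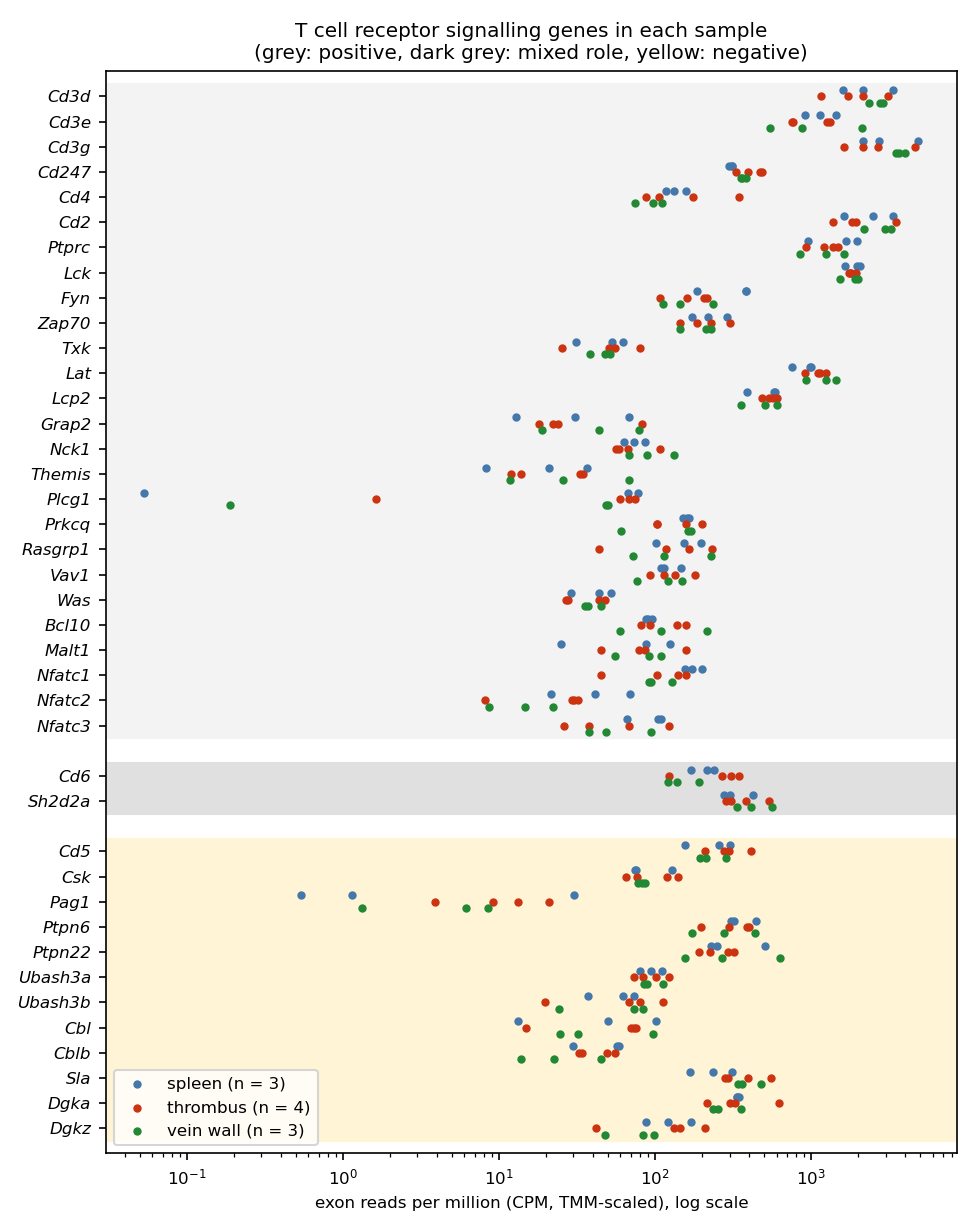
TMM-scaled CPM (log axis) of the 40 genes, 1 point per sample, with spleen in blue, thrombus in red and vein wall in green. Points of different tissues lie over each other in nearly every gene, and Plcg1 and Pag1 have the widest spreads.

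The first comparison asked whether Treg in the clot carry more or less of this machinery than splenic Treg. No member was called in thrombus against spleen by edgeR's quasi-likelihood test at an adjusted p under 0.05, where 0.145% of all genes were. DESeq2 called no member either. At an unadjusted p under 0.05 there was 1 member by edgeR (Fyn), against a background of 4.14% of genes, and there were 2 by DESeq2 (5.38% of genes). The median log2 fold change of the 40 was 0.03, the same as that of all genes tested (0.03), with 20 members above 0 and 20 below. Estimates ran from -0.88 (Fyn) to 0.68 (Sla), and 35 of 40 were within 0.5 of 0.

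The second comparison set the vein wall beside the spleen. Again no member was called, where 0.111% of genes were, and DESeq2 called none. At an unadjusted p under 0.05 edgeR gave 2 members (Fyn and Nfatc2), against 5.45% of genes, and DESeq2 gave 2 (7.29% of genes). The median log2 fold change was -0.09, beside -0.01 for all genes, and estimates ran from -1.52 (Nfatc2) to 0.72 (Sla). Both comparisons use the same spleen samples, so values lower or higher in both tissues are not independent of each other.

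The third comparison, thrombus against vein wall, uses no spleen sample. No member and no other gene was called by edgeR, so the percentage called was 0%, and DESeq2 called no member. At an unadjusted p under 0.05 edgeR gave 2 members (Cd4 and Cd6), against 2.92% of genes, and DESeq2 gave 2 (4.68% of genes). The median log2 fold change was 0.10, beside 0.04 for all genes.

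With the set of files as a covariate no member was called either, where 0.453%, 0.41% and 0% of genes were. At an unadjusted p under 0.05 that fit gave 4 members in thrombus against spleen (Cd247, Fyn, Nfatc1 and Sla), beside 6.8% of genes. It gave 4 in vein wall against spleen (Fyn, Nfatc2, Sla and Dgkz), beside 7.85%, and 2 between thrombus and vein wall (Cd4 and Cd6), beside 4.2%.

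These tests bound the differences unevenly. The 95% interval lay within a 2-fold change in either direction for 16 of 40 members in thrombus against spleen, where 13% of all genes had such an interval. It did so for 10 of 40 members in vein wall against spleen (6.48% of genes) and for 15 of 40 in thrombus against vein wall (11.2% of genes). The members' counts are thus above the background, but the members were not compared with genes of like level. Their median SD of log2 CPM over the samples was 0.515, beside 0.809 for all genes. An interval that leaves the 2-fold range does not show a difference. The median standard error of a member's log2 fold change was 0.38, 0.41 and 0.38 in the 3 comparisons.

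**Figure D2:**
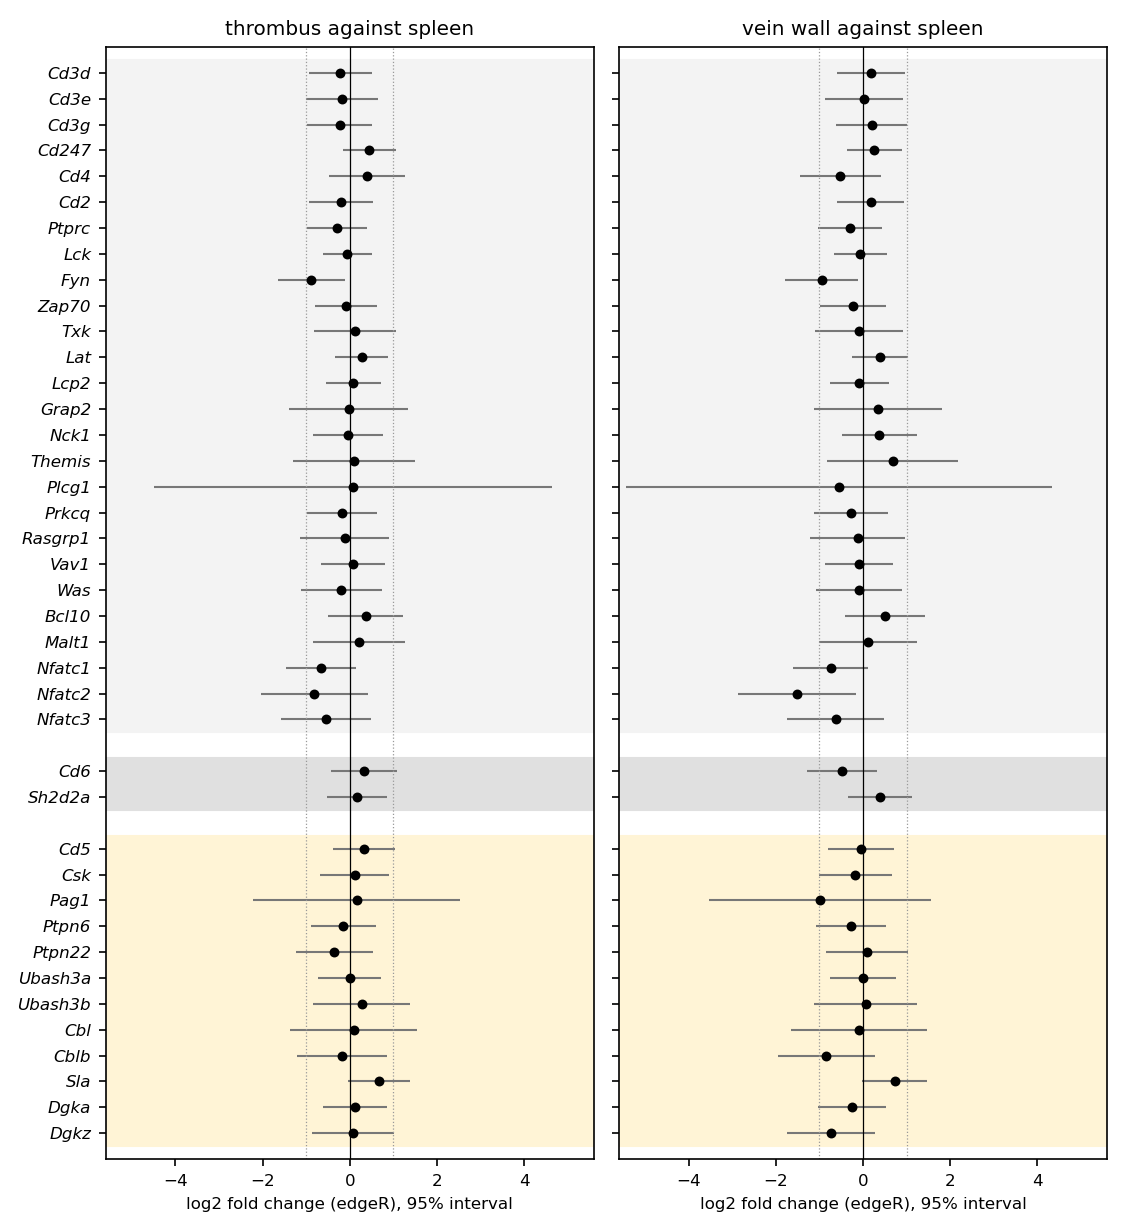
The log2 fold change of each gene with its 95% interval (edgeR), thrombus against spleen at left and vein wall against spleen at right, with dotted lines at a 2-fold change. All but a few intervals cover 0, those of Fyn lie below it in both panels, and none passed the adjusted threshold.

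The receptor chains showed no shift shared by all. Cd3g stood at 2147, 4851 and 2729 CPM in spleen, at 1620, 4607, 2662 and 2149 in thrombus, and at 3654, 3992 and 3495 in vein wall. Spleen 2 and thrombus 2, both of set 2, were the highest, and the tissues overlapped. Against spleen, its log2 fold change was -0.23 ± 0.36 (SE) for thrombus and 0.20 ± 0.39 for vein wall. Without spleen 2 these became 0.20 and 0.64, so the sign in thrombus turned in that fit, which kept thrombus 2. Within sets 1, 2 and 3 the thrombus difference was -0.41, -0.07 and -0.19. Cd3d, the delta chain, and Cd3e, the epsilon chain, lay between -0.21 and 0.18 in both tissues. For Cd3e only 65.2% to 100% of exon reads matched 1 place, so its counts are less certain.

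Cd247 encodes the zeta chain, which carries most of the receptor's phosphorylation motifs. It stood at 309.2, 297.9 and 312.8 CPM in spleen, 472.3, 393.1, 329.9 and 481.3 in thrombus, and 356.6, 381.7 and 362.0 in vein wall. Every thrombus and vein wall sample lay above every spleen sample, as 2.49% and 6.76% of all genes did in those comparisons. No member lay wholly below the spleen in thrombus, where 2.5% of genes did, and none was separate between thrombus and vein wall, where 2.35% of genes were higher and 1.48% lower without overlap. The spleen samples were very alike (306.6 ± 7.75, SD, n = 3) and the thrombus mean was 419.1 ± 71.5 (SD, n = 4). The log2 fold change was 0.45 ± 0.29 in thrombus (edgeR, unadjusted p = 0.132) and 0.26 ± 0.30 in vein wall (unadjusted p = 0.406), so the difference did not pass the test. Within-set differences were 0.61, 0.40 and 0.35 in thrombus for sets 1, 2 and 3, and 0.26 and 0.25 in vein wall within sets 2 and 3. On intron reads it was -0.19 and -0.75. Cd247 overlaps Pou2f1 on the opposite strand, and if the libraries keep no strand their reads cannot be told apart. The gene models of set 1 also place Gm16565 over it on the same strand, and those of set 2 place Gm32999 on the opposite strand.

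Cd4, the coreceptor that brings Lck to the receptor, was measured at 156.8, 131.5 and 117.9 CPM in spleen. It stood at 176.2, 106.2, 88.1 and 346.5 in thrombus and at 74.6, 97.0 and 111.4 in vein wall. Thrombus 4 stood above all other samples, and all vein wall samples lay below all spleen samples, as 6.5% of genes did. The log2 difference of thrombus from vein wall was 0.93 ± 0.42 (edgeR, unadjusted p = 0.042, adjusted p = 0.9995), and without thrombus 4 it was 0.39. Cd2 and Ptprc, the phosphatase that keeps Lck ready to act, had estimates between -0.30 and 0.17 in the 2 tissues. Cd2 stood at 1624, 3338 and 2479 CPM in spleen, 1376, 3477, 1946 and 1838 in thrombus, and 3239, 2990 and 2169 in vein wall. Ptprc stood at 1674, 1965 and 949.3, at 1486, 1374, 930.1 and 1208, and at 1627, 845.3 and 1251 CPM in the same order. In both genes the samples of set 2 were high in spleen, and the tissues overlapped.

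The Src family kinases Lck and Fyn phosphorylate the receptor chains, and Lck does most of that work in T cells. Lck was the steadiest of the 40 genes. It stood at 1637, 1964 and 2047 CPM in spleen, at 1799, 1780, 1752 and 1933 in thrombus, and at 2004, 1898 and 1525 in vein wall. The highest of the 10 samples was 1.34 times the lowest, and the tissues overlapped. Its log2 fold change was -0.05 ± 0.27 in thrombus, with a 95% interval from -0.62 to 0.51, and -0.06 ± 0.29 in vein wall, with an interval from -0.66 to 0.55.

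Fyn was the member with the smallest p in both comparisons with spleen. It stood at 382.7, 186.8 and 381.9 CPM in spleen, at 160.2, 108.2, 215.2 and 204.2 in thrombus, and at 112.3, 144.9 and 234.6 in vein wall. Spleen 2 alone of the spleen samples reached into the range of the other tissues, and within set 2 it was the highest of the 3 samples. The log2 fold change was -0.88 ± 0.37 in thrombus (edgeR, unadjusted p = 0.027, adjusted p = 0.9998) and -0.95 ± 0.40 in vein wall (unadjusted p = 0.028, adjusted p = 0.843). With the set of files as a covariate it was -0.95 and -0.98, with unadjusted p = 0.00114 and 0.00258 and adjusted p = 0.150 and 0.220, so it did not pass there either. Within sets 1, 2 and 3 it was -1.25, -0.78 and -0.86 in thrombus, and within sets 2 and 3 it was -0.73 and -1.05 in vein wall. Between thrombus and vein wall it was 0.07 ± 0.37.

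How the Fyn reads were matched bears on that value. Only 19.8% to 65.6% of its exon reads matched a single place, so it shares sequence with other parts of the genome. In the gene models of sets 1 and 2, Gm16364 and Gm16365 overlap Fyn on the opposite strand, and in those of set 3 no gene does. Counting unique reads alone gave 217.1, 95.03 and 312.5 CPM in spleen, 74.7, 50.6, 123.5 and 51.0 in thrombus, and 52.0, 53.3 and 95.3 in vein wall. On unique reads the log2 fold change was -1.48 and -1.64, with adjusted p = 0.743 and 0.605 by edgeR. Intron reads gave -0.85 and -0.84. The ratio of Lck to Fyn per kilobase ran from 6.37 to 23.9 in spleen, 15.1 to 37.5 in thrombus and 12.1 to 40.7 in vein wall, so it overlapped between tissues.

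Fyn lies on the plus strand of chromosome 10, from 39368855 to 39565381 in GRCm38. The bases before a RefSeq start of Fyn are shown because Fyn was the member furthest from the spleen level relative to its error. That start lies inside the gene span just given, so the bases shown are not upstream of the first base of the gene. The window chr10:39369549-39369763, plus strand, GRCm38.p6, ends before the first base that an annotated Fyn exon covers there, and capitals mark a GC box.
Fyn: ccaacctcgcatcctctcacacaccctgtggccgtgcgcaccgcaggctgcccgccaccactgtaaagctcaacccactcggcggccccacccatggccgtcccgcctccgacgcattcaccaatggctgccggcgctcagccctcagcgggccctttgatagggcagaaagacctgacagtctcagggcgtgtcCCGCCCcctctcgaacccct
The GC box (GGGCGG, either strand) begins 55 bases before that RefSeq start. Searched on both strands in the 250 bases before each start, it occurs in 32.7% of 32851 promoters and in 20 of the 48 listed for 32 of the 40 members (41.7%). The AP-1 letters TGANTCA and the ETS letters CCGGAAG occur in 6.75% and 6.91% of all promoters and in none of the 48. GGAAAA, the core that NFAT proteins bind, occurs in 20.4% of all and in 8 of the 48 (16.7%). These matches are letters only, and the data hold no measurement of binding.

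The other kinases did not stand apart. Zap70, which docks on the phosphorylated receptor, gave -0.08 ± 0.34 and -0.23 ± 0.36 in thrombus and vein wall. Txk, a Tec family kinase of resting T cells, gave 0.12 ± 0.45 and -0.09 ± 0.48. On intron reads Txk gave 1.37 and 1.64, with adjusted p = 0.787 and 0.626 by edgeR, and did not pass. At an unadjusted p under 0.05, intron reads gave 8 of 39 members in thrombus and 5 of 39 in vein wall, beside 6.09% and 6.53% of all genes, and none of those passed the adjusted threshold. The 8 in thrombus include Txk, above spleen. They also include Cd3g (-1.76), Nfatc1 (-1.24), Ptprc (-0.95), Fyn (-0.85) and Prkcq (-0.81), below it.

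Among the adaptors, Lat is the membrane scaffold that ZAP-70 phosphorylates. It stood at 756.9, 999.6 and 981.8 CPM in spleen, at 912.4, 1249, 1144 and 1109 in thrombus, and at 1436, 1237 and 923.3 in vein wall. By the mean of its samples in a set it was above the spleen sample in every set, by 0.20 to 0.32 on the log2 scale in thrombus and by 0.12 and 0.52 in vein wall, although vein wall 3-4 lay below spleen 3-4. The fitted values were 0.27 ± 0.29 and 0.39 ± 0.31, and neither passed. Themis, a scaffold best known from thymocytes, was lower and more variable, at 20.9, 36.8 and 8.23 CPM in spleen, 34.7, 33.2, 13.8 and 11.9 in thrombus, and 68.3, 25.8 and 11.7 in vein wall. Its vein wall estimate of 0.68 ± 0.72 turned to -0.22 without vein wall 1. Lcp2 (SLP-76), Grap2 (GADS, which joins SLP-76 to LAT) and Nck1 (which links to actin) lay between -0.08 and 0.37 in the 2 tissues. For Lcp2 only 26.5% to 99.3% of exon reads matched 1 place, and on those its value in thrombus was -0.15 ± 0.61.

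Of the enzymes, exchange factors and actin regulators, none stood out. Vav1, an exchange factor for Rac, stood at 114.6, 109.1 and 146.2 CPM in spleen, 180.3, 92.3, 113.9 and 134.4 in thrombus, and 121.3, 148.7 and 77.0 in vein wall. Its tissues overlapped, with log2 fold changes of 0.08 ± 0.35 and -0.09 ± 0.38. Prkcq, the protein kinase C of the synapse, Rasgrp1, which activates Ras, and Was, the actin regulator WASP, lay between -0.27 and -0.09 in both tissues.

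Plcg1, the phospholipase that starts the calcium and Ras branches, cannot be compared over the sets of files. It stood at 77.8, 0.0536 and 66.7 CPM in spleen, 59.3, 1.62, 67.8 and 74.6 in thrombus, and 0.19, 50.1 and 48.6 in vein wall. The 3 low values are the 3 files of set 2, which use other gene models, and 0.41% to 100% of its reads per sample matched 1 place. Pooled over the samples that share was 10.3%, so most of its exon reads had several matches and its levels are uncertain. In sets 1 and 3 alone the tissues lay at 66.7 to 77.8, 59.3 to 74.6 and 48.6 to 50.1 CPM, the third from 2 vein wall samples.

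Bcl10 and Malt1 act together in a complex that frees NF-kB. Bcl10 stood at 89.5, 87.3 and 95.6 CPM in spleen, 156.6, 137.2, 81.6 and 93.2 in thrombus, and 216.6, 109.6 and 59.7 in vein wall. Its spread was wide in both other tissues and the log2 fold changes were 0.37 ± 0.41 and 0.50 ± 0.44. Without vein wall 1 the second became -0.08. Malt1, the protease of the complex, gave 0.21 ± 0.50 and 0.11 ± 0.54.

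The NFAT factors carry the calcium signal into the nucleus, and all 3 measured genes had lower estimates than spleen in both tissues without passing the test. Nfatc1, which is itself induced by NFAT, stood at 198.3, 173.2 and 154.5 CPM in spleen, 141.1, 45.3, 157.9 and 102.4 in thrombus, and 93.6, 91.1 and 129.2 in vein wall. Of the other samples, only thrombus 3 lay above the lowest spleen sample. All vein wall samples were below all spleen samples, as 6.5% of genes were, and in that comparison 2 of 40 members lay wholly above (Cd247 and Sla) and 2 wholly below (Cd4 and Nfatc1). Its log2 fold changes were -0.65 ± 0.38 (unadjusted p = 0.107) and -0.74 ± 0.42 (unadjusted p = 0.089), with a range from -0.87 to -0.38 and from -0.93 to -0.63 when samples were left out in turn. On intron reads they were -1.24 and -1.13, with adjusted p = 0.787 and 0.748 by edgeR.

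Nfatc2 stood at 68.7, 41.0 and 21.5 CPM in spleen, 31.9, 8.11, 30.2 and 29.3 in thrombus, and 8.68, 14.6 and 22.3 in vein wall. The spleen samples themselves differed by more than 3 times, and the lowest of them lay within the range of the other tissues. The log2 fold change was -0.81 ± 0.59 in thrombus and -1.52 ± 0.65 in vein wall (edgeR, unadjusted p = 0.030, adjusted p = 0.866). In set 3 alone it was 0.46 and -0.24, against -2.27 and -2.18 in set 2, and on intron reads it was -0.05 and -0.02. Nfatc3 gave -0.55 ± 0.49 and -0.63 ± 0.53. As the 3 genes share samples, their common sign is not 3 separate observations.

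**Figure D3:**
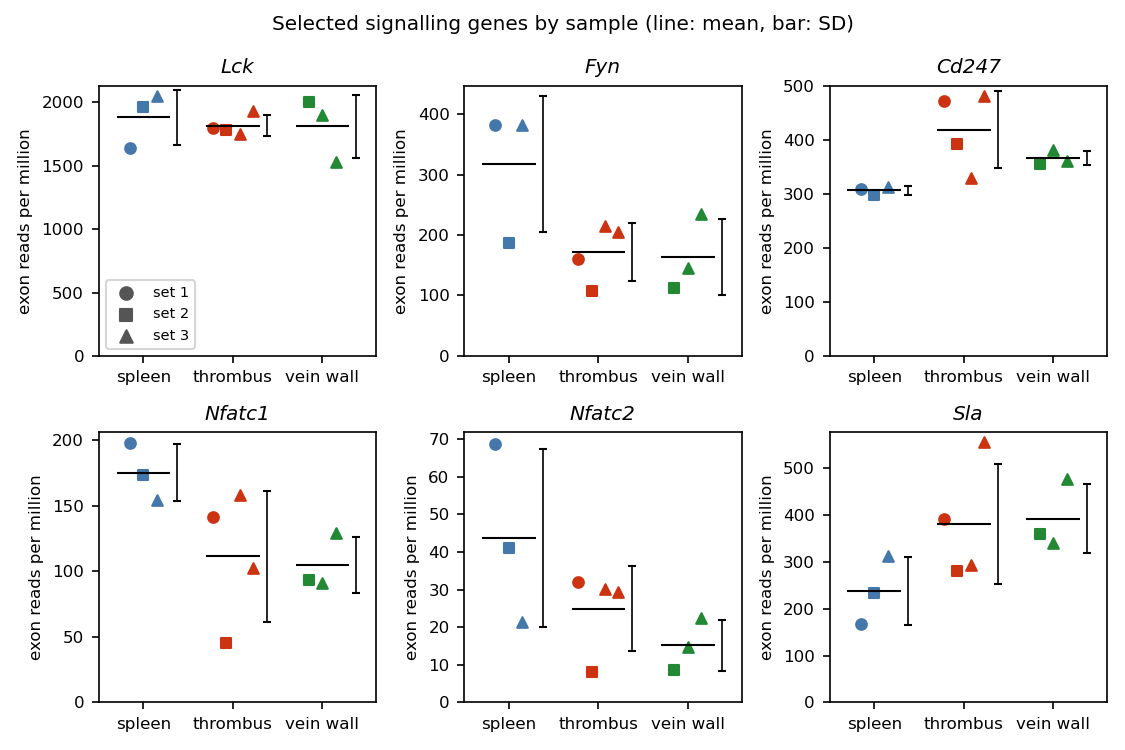
TMM-scaled CPM (linear axis from 0) in each sample for Lck, Fyn, Cd247, Nfatc1, Nfatc2 and Sla, with the symbol giving the set of files, a line at the mean and a bar for the SD. Lck is flat, Fyn and Nfatc1 sit lower in most thrombus and vein wall samples, Cd247 sits higher, and Nfatc2 and Sla are spread within each tissue.

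The negative regulators were set beside the positive components. In thrombus against spleen the 12 negative regulators had a median log2 fold change of 0.10 with 8 above 0, and the 26 positive components a median of -0.07 with 10 above 0. In vein wall against spleen the medians were -0.14, with 4 of 12 above 0, and -0.09, with 11 of 26. With the set of files as a covariate the medians were 0.06 (negative) and -0.06 (positive) in thrombus, and 0.06 and 0.01 in vein wall, so the order of the groups in vein wall turned with the fit. No member of either was called, and the difference between the groups was not tested. Summed over genes, positive CPM was 6.92 to 9.71 times negative CPM in spleen, 4.65 to 10.6 times in thrombus and 8.00 to 9.89 times in vein wall. Those ranges overlapped, and the highest and the lowest ratio were both from thrombus.

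Cd5 is a surface receptor that recruits inhibitors and whose level is known to follow receptor signal strength. It stood at 300.0, 156.1 and 255.3 CPM in spleen, 410.0, 209.2, 275.9 and 298.3 in thrombus, and 284.9, 211.4 and 193.7 in vein wall. In thrombus it was above the spleen sample of its set in all 3 sets, and in vein wall it was above in set 2 and below in set 3. The log2 fold changes were 0.33 ± 0.34 and -0.04 ± 0.36. Cd6, a related receptor of mixed role, gave 216.0, 169.1 and 239.4 CPM in spleen, 345.4, 122.4, 267.8 and 308.5 in thrombus, and 120.1, 137.2 and 191.6 in vein wall. Thrombus exceeded vein wall by 0.80 ± 0.37 (edgeR, unadjusted p = 0.042, adjusted p = 0.9995), although thrombus 2 lay within the vein wall range. Sh2d2a, an adaptor that binds Lck, gave 276.6, 301.8 and 424.8, then 304.9, 382.2, 538.2 and 282.6, and 408.6, 563.4 and 333.5 CPM. Its tissues overlapped, at 0.17 ± 0.33 and 0.38 ± 0.35.

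Csk phosphorylates the inhibitory tyrosine of Lck and Fyn. It stood at 128.3, 75.7 and 74.3 CPM in spleen, 140.9, 64.9, 77.1 and 118.7 in thrombus, and 78.0, 85.6 and 81.9 in vein wall, with log2 fold changes of 0.11 ± 0.37 and -0.18 ± 0.40. Pag1, its anchor, was scarce: 30.2, 0.536 and 1.14 CPM in spleen, 20.9, 9.17, 3.91 and 13.2 in thrombus, and 1.33, 8.54 and 6.14 in vein wall. One spleen sample held nearly all of the spleen reads. The estimate of 0.16 ± 1.13 in thrombus became 3.74 without spleen 1, and that of -0.99 ± 1.22 in vein wall became 2.64, so no direction can be given.

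Among the phosphatases, Ptpn6 (SHP-1) stood at 304.8, 439.7 and 322.3 CPM in spleen, 386.8, 400.3, 298.2 and 198.1 in thrombus, and 438.8, 276.5 and 171.7 in vein wall. Ptpn22, which acts on Lck and ZAP-70, stood at 250.2, 507.6 and 229.3, at 294.7, 321.0, 189.9 and 224.4, and at 628.0, 267.1 and 156.0 CPM. The samples of set 2 were the highest of each tissue in both genes. Their log2 fold changes lay between -0.35 and 0.09. Ubash3a, a suppressor of receptor signalling that is confined to lymphocytes, had the most even means of the 40, at 95.2 ± 15.4 (SD, n = 3), 95.01 ± 21.6 (SD, n = 4) and 95.6 ± 15.1 (SD, n = 3) CPM. Its 95% intervals ran from -0.72 to 0.71 and from -0.76 to 0.77. Ubash3b, its paralogue with the stronger phosphatase, gave 0.27 ± 0.53 and 0.06 ± 0.57.

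The ubiquitin ligases Cbl and Cblb tag receptor components for removal. Cblb, which sets the need for costimulation, stood at 58.6, 56.9 and 29.8 CPM in spleen, 55.1, 32.4, 49.1 and 34.1 in thrombus, and 44.8, 22.6 and 13.7 in vein wall. Its vein wall samples were low but overlapped the spleen, at -0.84 ± 0.53 (unadjusted p = 0.129). Cbl gave 0.09 ± 0.68 and -0.09 ± 0.73.

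Sla encodes SLAP, an adaptor that leads Cbl to the receptor's zeta chain. It stood at 166.6, 233.3 and 311.6 CPM in spleen, 392.2, 279.7, 292.6 and 556.3 in thrombus, and 359.0, 340.1 and 476.3 in vein wall. All vein wall samples were above all spleen samples, as 6.76% of genes were, and 2 thrombus samples were not. It gave log2 fold changes of 0.68 ± 0.34 (edgeR, unadjusted p = 0.060) and 0.72 ± 0.36 (unadjusted p = 0.059), with adjusted p = 0.9998 and 0.903. Only 3.52% to 11.4% of its exon reads matched a single place, and on those the fold changes were 0.61 and 0.33. Sla lies inside the thyroglobulin gene Tg on the opposite strand, so if the libraries keep no strand its reads are uncertain on that ground too. Sla is expressed by other blood cells as well. Beside it, the 7 B cell markers summed to 164.0 to 310.5 CPM in spleen, 231.7 to 948.9 in thrombus and 389.6 to 1286 in vein wall. The 10 markers listed for dendritic cells, which include Cd74 and class II genes, summed to 1160 to 2275, 1617 to 10950 and 2289 to 11950 CPM, with at most 5, 3 and 3 of the 10 at 0. Cd74 alone stood at 928.6 to 1718, 1166 to 7248 and 1642 to 8241 CPM, so it makes up most of each sum. Apart from Cd74, H2-Aa and H2-Ab1, no marker of that list exceeded 75.9 CPM in any sample (Siglech in thrombus 2). The upper ends of both lists are thrombus 2 and vein wall 1, of set 2. Without them the B cell sums were 231.7 to 484.5 in thrombus and 389.6 to 428.2 in vein wall, and the dendritic cell sums 1617 to 2924 and 2289 to 2406. For Sla itself, thrombus 2 stood at 279.7 and vein wall 1 at 359.0 CPM. The part of such cells in the Sla value was not tested.

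The diacylglycerol kinases remove the lipid that activates Rasgrp1 and protein kinase C. Dgka stood at 332.4, 346.2 and 332.3 CPM in spleen, 621.3, 302.9, 215.7 and 326.5 in thrombus, and 357.3, 236.5 and 253.9 in vein wall. Without thrombus 1, its estimate in thrombus moved from 0.12 to -0.26. Dgkz stood at 170.2, 87.1 and 121.8 CPM in spleen, 133.1, 42.1, 143.9 and 209.8 in thrombus, and 47.6, 83.4 and 98.0 in vein wall. It gave 0.07 ± 0.45 in thrombus and -0.73 ± 0.48 in vein wall (unadjusted p = 0.149), and the tissues overlapped.

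The members were also split by where they are known to be expressed. The 18 genes listed as T lineage had medians of -0.01 and 0.01 in thrombus and vein wall. The 22 listed as broad in blood cells had medians of 0.07 and -0.22. With the set as a covariate the second pair became -0.03 and -0.07, so its sign in thrombus turned. In these bulk samples fewer Treg and less RNA per Treg cannot be told apart. Neither group had a called member, and the lists rest on gene names, not on measurements in these samples.

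Differences between the sets of files were larger than those between tissues for most members. The share of variance in log2 CPM that the set accounted for had a median of 0.528 over the members, and tissue one of 0.105. For all genes tested these medians were 0.336 and 0.176. The set accounted for more than tissue in 35 of the 40 members, and in 67.0% of all genes. The 5 exceptions were Cd247, Sla, Fyn, Nfatc1 and Cd4, with tissue at 0.614, 0.475, 0.471, 0.365 and 0.266. In the same order the set stood at 0.0496, 0.277, 0.392, 0.2815 and 0.177. By the mean of the samples in a set, thrombus was above spleen in every set for 4 members (Cd247, Cd5, Lat and Sla) and below in every set for 5 (Cd3d, Cd3g, Fyn, Nfatc1 and Was), beside 12.8% and 15.4% of all genes. In vein wall, which has samples in 2 sets, 9 members were above in both and 11 below in both, beside 24.9% and 28.6% of genes. Between thrombus and vein wall 5 members were above and 4 below in both sets, beside 22.8% and 22.5% of genes. Each of these counts was a smaller share of the 40 members than of all genes.

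The other genes of the pathway were not called either. Of 81 tested genes of the proximal, calcium, Ras and NF-kB branches that are not members, none was called in any comparison by edgeR, with 2, 1 and 0 at an unadjusted p under 0.05, beside 4.14%, 5.45% and 2.92% of all genes, and DESeq2 called none. With the set as a covariate none was called either, with 5, 10 and 1 at that level, beside 6.8%, 7.85% and 4.2% of all genes. Their median log2 fold changes were -0.06 in thrombus and -0.28 in vein wall. Ppp3ca, a catalytic subunit of calcineurin, gave -0.47 ± 0.58 and -0.28 ± 0.62.

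Genes that receptor signalling induces had a higher median than the machinery in both comparisons with spleen. The list of 18 holds immediate early factors, NF-kB targets and surface receptors, many of which other stimuli induce too. Like the members, it was drawn up with earlier results known. Its median log2 fold change was 0.83 in thrombus, with 14 above 0, and 0.78 in vein wall, with 13 above 0, beside 0.03 and -0.01 for all genes. By edgeR 2 were called in thrombus, both higher, beside 0.145% of all genes. Nr4a1, an orphan nuclear receptor used as a reporter of receptor signal, went from 117.9 ± 39.6 (SD, n = 3) to 662.5 ± 275.6 (SD, n = 4) CPM, at 2.49 ± 0.45 with an adjusted p of 0.0197. Nr4a3 went from 28.6 ± 13.1 to 148.6 ± 70.8 CPM, at 2.38 ± 0.46 with an adjusted p of 0.0352. Neither was called without spleen 2, without spleen 3-4, without thrombus 1 or without thrombus 4. Without spleen 1 the list had 7 calls, of 34 genes called in all. With the replicate number as a block 4 were called in thrombus, of 32 genes called in all, and DESeq2 called 5, of 105. In vein wall edgeR called none, where 0.111% of all genes were called. At an unadjusted p under 0.05 edgeR gave 10, of which 8 were higher and 2 lower, beside 5.45% of all genes. DESeq2 called 4 in vein wall, of 119 genes called in all. With the set of files as a covariate 6 were called in thrombus (Nr4a1, Nr4a3, Cd69, Rel, Nfkbia and Junb) and 5 in vein wall, against 0.453% and 0.41% of all genes. Myeloid cells express many of these genes too: the 9 macrophage and monocyte markers summed to 54.1 to 201.7 CPM in spleen, 49.9 to 1748 in thrombus and 22.8 to 266.5 in vein wall, with at most 2, 1 and 3 of the 9 at 0. The highest was thrombus 2, and the other thrombus samples stood at 61.3, 49.9 and 60.1, within or below the spleen range. Dendritic cell sums are given above. The 7 fibroblast markers summed to at most 0.453 CPM in spleen, 7.40 to 18.7 in thrombus and 10.3 to 59.8 in vein wall, with no overlap with spleen. Of these 7, 4 to 7 were at 0 in each spleen sample, up to 2 in thrombus and 1 to 3 in vein wall. The part of such cells in the induced genes' values was not tested.

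Not all targets pointed that way. Egr2, a factor induced early after receptor engagement, had an estimate of -1.72 ± 0.54 in thrombus and -2.42 ± 0.61 in vein wall, with unadjusted p = 0.0050 and 0.000839 and adjusted p = 0.597 and 0.298 by edgeR, so it passed in neither. The surface receptors Tnfrsf9 and Tnfrsf4 gave between -0.09 and 0.48. Egr2 was chosen for mention after its values were seen. Cd69, the gate gene, went from 279.9 ± 58.6 (SD, n = 3) CPM in spleen to 585.9 ± 174.6 (SD, n = 4) in thrombus and 752.4 ± 120.5 (SD, n = 3) in vein wall, at 1.07 ± 0.32 and 1.43 ± 0.34. Its edgeR adjusted p was 0.578 and 0.216, and with the set as a covariate it was 0.0247 and 0.00863. By DESeq2 the adjusted p was 0.101 and 0.0129.

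**Figure D4:**
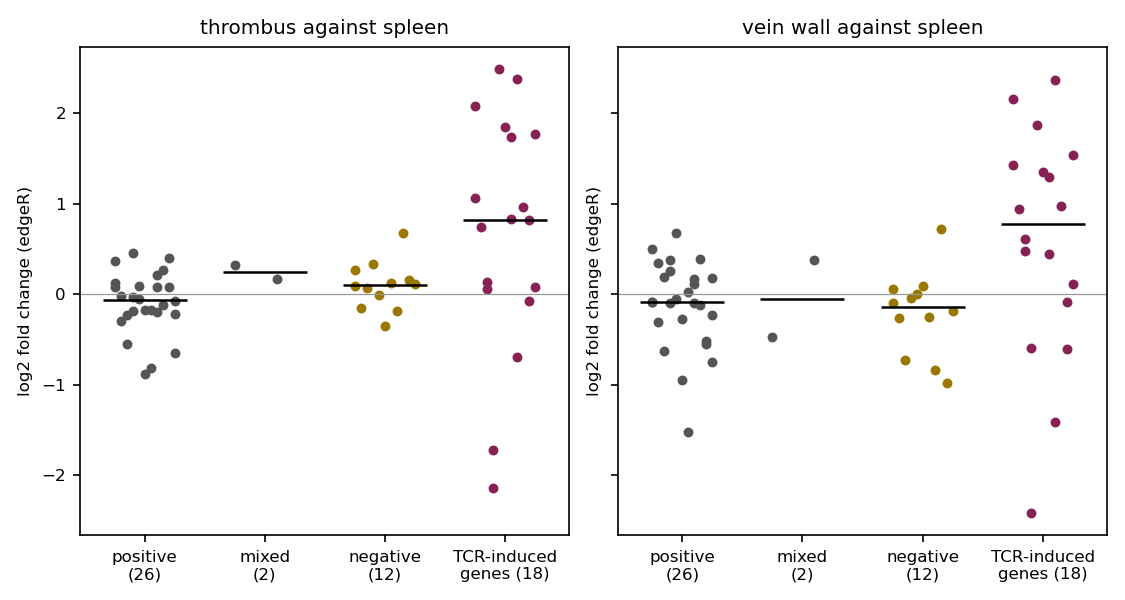
The log2 fold change of each gene (edgeR), thrombus against spleen at left and vein wall against spleen at right, for the 26 positive components, 2 genes of mixed role, 12 negative regulators and 18 genes that receptor signalling induces, with a line at each median. The 3 groups of machinery genes centre near 0 and the induced genes centre at 0.83 and 0.78 with a wide spread.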

How the data were processed

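RNA was measured in 12 libraries of sorted Treg. The deposited files give counts per gene, and per the file headers total exon reads include reads with several matches and unique exon reads do not. The genome build was GRCm38 (submitters' processing notes), while aligner and counter were not given in the sources used here. Files of the 3 sets were joined by Ensembl ID and by symbol, earlier symbol or RefSeq synonym. Total exon read counts were tested with edgeR 4.0.16 (R 4.3.3; quasi-likelihood, robust, TMM, filterByExpr, tissue as the single factor, Benjamini-Hochberg over 11698 genes, threshold 0.05), after a test on simulated data. CPM are these counts divided by the TMM-scaled library total, on the usual counts-per-million scale. Differences within a set of files use log2(CPM + 0.5) and have no test. DESeq2 1.42.0 and the other settings are given in the closing section.

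The members and lists were chosen with earlier results of these data known. Per-sample values are printed for the member of each role with the highest level per length and the one with the largest fold change against spleen, plus Cd247. Cd247 was added after its values were seen. Of the other lists, called genes and a few chosen by name are given, and some of the latter are not reported here. Labels number the libraries by experiment. For spleen and thrombus, same-numbered samples deviated from their tissue means together (correlations 0.43, 0.32, 0.17 and 0.10), and these pairs are also of the same set of files; a fit with the number as a block called no member. Counting error sets the least precision: a count of 0 allows up to 3 reads, or 0.0542 to 0.309 CPM by library. These libraries carry no molecular identifiers, so such limits cover counting error only. The genome sequence was not used, and promoter sequences are from RefSeq, GRCm38.p6.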

Additional observations from a re-analysis of the deposited data

Results flagged for a closer look

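In 3 of the 40 members the 4 thrombus samples had 1 value set far apart from the rest by Dixon's criterion, a rule that chance meets in about 1 of 20 groups. The sample was thrombus 2, of set 2, in all 3. Cbl stood at 14.9 CPM there, against 70.1 to 74.9 in the other thrombus samples, and set 2 was also low in spleen (13.2) and vein wall (24.6). Grap2 stood at 82.3 CPM, against 18.1 to 23.8, and was also highest in set 2 in spleen (68.2) and vein wall (79.3). Nfatc2 stood at 8.11 CPM, against 29.3 to 31.9, and in vein wall the sample of set 2 was the lowest at 8.68, while in spleen the sample of set 2 lay between the others at 41.0.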

How the results depend on the processing

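The count of members called was 0 in each comparison under RLE and upper-quartile scaling, DESeq2, no filter on low counts, unique exon reads, 12 libraries taken separately, the set of files as a covariate and the restriction to genes of like exon length (4 members tested). It was also 0 when each sample was left out in turn (lowest 0, highest 0 in each comparison), and in 2 settings chosen after the data were seen: intron reads (39 members tested, with 8, 5 and 0 at an unadjusted p under 0.05, beside 6.09%, 6.53% and 3.22% of all genes) and the fit without the 3 files of set 2. Without a sample, members at an unadjusted p under 0.05 numbered 1 to 2, 0 to 4 and 0 to 5, where 3.1% to 5.23%, 4.83% to 6.66% and 2.06% to 7.65% of all genes did. With the replicate block the count was 0, with 3, 3 and 1 members at an unadjusted p under 0.05 (4.86%, 7.13% and 3.67% of all genes) and 32, 24 and 0 of all genes called. Vein wall 1 and 2 share only a number with spleen and thrombus samples, not a set of files. Vein wall 1 correlated at -0.12 with spleen 1 and at -0.0005 with thrombus 1. Vein wall 2 correlated at -0.06 with spleen 2 and at -0.10 with thrombus 2. Vein wall 3-4 shares both number and set with spleen 3-4 (0.05), thrombus 3 (0.22) and thrombus 4 (0.21). Counts of all genes called differed with the setting, from 17 and 13 to 105 and 119 by DESeq2, 80 and 66 without a filter, 53 and 48 with the set as covariate, 35 and 51 with 12 libraries and 1 and 1 on intron reads. Leaving out samples gave 6 to 34 and 5 to 26.

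Since no member was called, estimates near 0 changed sign easily: 96, 81 and 120 of 803 values per comparison (thrombus against spleen, vein wall against spleen, thrombus against vein wall) had another sign than reported. Over the settings on exon reads 13, 15 and 13 members kept 1 sign. Those in both comparisons with spleen were Cd247, Fyn, Lat, Nfatc1, Nfatc2, Nfatc3, Ptprc and Sla, each in 1 direction, and Cd6, above spleen in thrombus and below it in vein wall. Fyn ranged from -1.48 to -0.70 and from -1.64 to -0.71, with edgeR and DESeq2 adjusted p from 0.150 to 1.0 and from 0.220 to 1.0. Of the 18 induced genes, between 0 and 7 were called in thrombus over the settings, with 5 by DESeq2 and 0 on intron reads. Nr4a1 and Nr4a3 were called in 15 of 20 and 14 of 21 settings. The cause of these changes was not tested. Low counts limit Pag1 and Themis, whose lowest samples held 10 and 128 reads. The lowest Plcg1 sample held 1 read and is of set 2, which uses other gene models.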
